A study of Mus musculus with 7 samples.

Results

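The sodium-potassium ATPase is described here through 5 of its subunit genes, the beta subunits Atp1b1, Atp1b2 and Atp1b3 and the FXYD proteins Fxyd5 and Fxyd6, in cultured mouse cells labelled as Ago2 knockout or wild type. The genes were chosen by name, with the high transcript level of Atp1b1 in wild-type differentiated cells already known, and all 5 were found among the 43629 genes of the count table. All 5 passed the filter on low counts that left 18426 genes for testing. Values that involve the wild-type cells are therefore given for these genes as a description, with fold changes and standard errors but no test. The comparison of knockout cells after and before differentiation and that of the knockout lines are tested.

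Polyadenylated RNA was sequenced from 7 libraries of E14 mouse embryonic stem (ES) cells, of 129/Ola background, and of knockout lines made from them. KO XEN are Ago2-knockout cells taken through 5 days of differentiation toward extra-embryonic endoderm in medium with serum, activin A (10 ng/mL) and all-trans retinoic acid (0.1 µM). They gave 1 library from knockout line C4 and 1 from knockout line 5-3. WT XEN are wild-type E14 cells given the same differentiation, with libraries A and B. KO ESC are undifferentiated Ago2-knockout ES cells grown with LIF; they gave 1 library from C4 and libraries 5-3_1 and 5-3_2 from line 5-3. The sources used here do not say whether a knockout line is 1 clone, and wild-type ES cells were not analysed here. Total counts were 13941826 (C4) and 33389566 (5-3) in KO XEN, against 36427340 and 38595537 in WT XEN. The KO ESC libraries held 39998808 to 48650113.

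The sodium pump moves sodium out of the cell and potassium into it at the cost of ATP, and the gradient it sets up drives other transporters and water flow across epithelia. A catalytic alpha subunit carries out the transport. A glycosylated beta subunit brings the alpha subunit to the plasma membrane and also takes part in adhesion between cells, and a small single-span FXYD protein adjusts the affinity of the pump for its ions. Yolk sac endoderm, of which XEN cells are a culture model, is an absorbing epithelium, and in the mouse embryo the pump is known for driving fluid into the blastocyst cavity.

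Labels were set against marker genes and the targeted transcript first. The 12 extra-embryonic endoderm markers, among them Gata4, Gata6, Sox17 and Lrp2, summed to 488 and 807 CPM (read counts relative to the TMM-scaled size of the library) in KO XEN, 15930 to 16340 CPM in WT XEN and 166 to 249 CPM in KO ESC. KO XEN is therefore used as the name of cells that went through the protocol, at endoderm marker levels between those of WT XEN and KO ESC. The 9 fibroblast markers summed to 6975 and 9045 CPM in KO XEN, against 561 to 1226 CPM in WT XEN and 32.2 to 45.0 CPM in KO ESC, with Col3a1 and Postn at 0 counts in KO ESC. The 8 ES cell markers summed to 62.3 and 74.8 CPM in KO XEN, against 423 to 435 CPM in WT XEN and 4217 to 4307 CPM in KO ESC. Neuron markers (8 genes) summed to 151 and 169 CPM in KO XEN, against 22.8 to 32.1 CPM in WT XEN and 471 to 505 CPM in KO ESC. By gene, 2 were higher, 1 lower and 5 not past an edgeR adjusted p of 0.05 in KO XEN against KO ESC. Their median log2 fold change was 0.2, and 69.0% of all tested genes passed, so this sum does not stand for the single genes. Astrocyte and radial glia markers (7 genes) summed to 103 to 175 CPM in KO XEN, against 227 to 248 CPM in WT XEN and 117 to 215 CPM in KO ESC. Trophoblast markers (6 genes) summed to 78.3 to 141 CPM in KO XEN, against 17.4 to 32 CPM in WT XEN and 41.2 to 45.6 CPM in KO ESC, with Cdx2 at 0 counts in KO XEN. By gene, 2 were higher and 3 lower in KO XEN against KO ESC (median log2 fold change -0.61). In WT XEN against KO ESC 3 were higher and 2 lower (median 1.76), where 62.5% of all tested genes passed. The order of these sums is thus not that of the single genes. Mitochondrially encoded genes took 0.781% and 0.979% of counts in KO XEN, against 1.94% and 2.64% in WT XEN and from 2.79% to 3.26% in KO ESC. Ago2 was at 122 CPM in the KO XEN library and 94.3 CPM in the KO ESC library labelled C4, at 9.36 to 9.94 CPM in the 3 knockout libraries of line 5-3, and at 393 and 432 CPM in WT XEN. Its difference between KO XEN and WT XEN did not pass (log2 fold change -2.66 ± 1.36, edgeR adjusted p = 0.145), and the transcript level does not show the knockout status of the C4 libraries. The part of these cell-type, mitochondrial and line differences in the results on the pump genes was not tested.

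The promoters of Atp1b1, of Atp1b3 and of Fxyd6 are shown because Atp1b1 had its highest level in WT XEN, whereas Atp1b3 and Fxyd6 had their lowest level there. Each window runs from 250 bases before the start of the gene to 50 bases after it, on the strand of the gene, as given by RefSeq for GRCm38.p6. Capitals mark GGGCGG (a GC box) or CAGGTG (an E-box) on either strand, so that CCGCCC and CACCTG are their reverse complements. TATAAA and AGATAA were searched in the same way and are in none of these windows.
Atp1b1, chr1:164458306-164458605, minus strand: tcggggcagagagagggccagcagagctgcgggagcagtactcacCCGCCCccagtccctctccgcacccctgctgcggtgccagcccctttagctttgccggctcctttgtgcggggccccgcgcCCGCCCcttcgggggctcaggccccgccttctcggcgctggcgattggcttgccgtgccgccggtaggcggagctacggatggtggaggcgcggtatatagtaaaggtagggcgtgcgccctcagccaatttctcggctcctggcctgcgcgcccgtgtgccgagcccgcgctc
Atp1b3, chr9:96364382-96364681, minus strand: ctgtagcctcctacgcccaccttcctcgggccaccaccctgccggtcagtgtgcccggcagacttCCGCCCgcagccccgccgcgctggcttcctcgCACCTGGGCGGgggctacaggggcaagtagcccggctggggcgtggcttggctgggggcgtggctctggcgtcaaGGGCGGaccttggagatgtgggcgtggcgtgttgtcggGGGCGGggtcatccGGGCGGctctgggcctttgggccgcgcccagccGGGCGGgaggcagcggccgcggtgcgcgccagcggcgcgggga
Fxyd6, chr9:45369935-45370234, plus strand: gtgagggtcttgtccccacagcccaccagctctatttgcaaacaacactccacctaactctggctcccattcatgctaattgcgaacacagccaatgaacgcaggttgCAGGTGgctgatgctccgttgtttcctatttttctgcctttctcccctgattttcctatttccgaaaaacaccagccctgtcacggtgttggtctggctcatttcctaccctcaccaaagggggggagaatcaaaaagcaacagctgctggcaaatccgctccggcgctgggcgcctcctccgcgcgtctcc
The Atp1b1 window held 31 CpG dinucleotides and 71.0% GC, and the Atp1b3 window 34 CpG and 76.0% GC, against medians of 7 CpG and 52.7% GC over 32851 promoter windows of the same length. Fxyd6 had 12 CpG and 54.3% GC, and the Fxyd5 window, with none of the searched motifs, 6 CpG and 57.3% GC. GC boxes numbered 2 in Atp1b1, 6 in Atp1b3 and 0 in Fxyd6, and 35.7% of all windows held at least 1. CAGGTG was found in Fxyd6, 142 bases before the start, and in Atp1b3, where it shares 1 base with a GC box. Of all windows, 20.2% held it. For Atp1b3 the table holds another start, whose window has 39 CpG and none of these motifs. A motif match describes the letters of the window, and Atp1b2 had no window in the table.

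Atp1b1 encodes the common beta subunit of epithelia (ENSMUSG00000026576, chromosome 1, 164437109 to 164458355, mm10). It was measured at 71.1 and 75.3 CPM in KO XEN (C4 and 5-3), against 852 and 1008 CPM in WT XEN (A and B) and 97.0, 96.8 and 95.6 CPM in KO ESC (C4, 5-3_1 and 5-3_2). Both WT XEN libraries lay far above all 5 knockout libraries, and both KO XEN libraries lay below the 3 KO ESC libraries, without overlap between any of the groups. Group means were 73.2 ± 2.93 CPM in KO XEN, 930 ± 110 CPM in WT XEN and 96.5 ± 0.776 CPM in KO ESC (SD, n = 2, 2 and 3). The mean of KO XEN was 12.7-fold below that of WT XEN (log2 fold change -3.67 ± 0.16, estimate ± SE from the edgeR fit), and that of WT XEN was 9.64-fold above that of KO ESC (3.27 ± 0.14). Bulk libraries cannot tell fewer cells that express a gene from less of its RNA in each cell. At its 3′ end Atp1b1 shares 575 exon bases with Nme7 on the opposite strand, and how the counting treated strand is not given in the sources used here. Nme7, a nucleoside diphosphate kinase family gene, was at 13.8 and 14.7 CPM in KO XEN, against 26.0 and 29.5 CPM in WT XEN and 34.6 to 44.6 CPM in KO ESC. Nme7 fell in KO XEN against both WT XEN (-0.96 ± 0.20, edgeR adjusted p = 0.00606) and KO ESC (-1.41 ± 0.19, adjusted p = 0.0003). In WT XEN against KO ESC it gave -0.45 ± 0.18 (edgeR adjusted p = 0.0596), where Atp1b1 gave 3.27. The part of shared reads in the values of Atp1b1 was not tested.

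Atp1b3 encodes a widely expressed beta subunit (ENSMUSG00000032412, chromosome 9, 96332655 to 96364442). It stood at 127 and 118 CPM in KO XEN, against 71.4 and 71.7 CPM in WT XEN, and 105, 121 and 120.4 CPM in KO ESC. WT XEN libraries were the lowest, and the range of KO XEN overlapped that of KO ESC. Means were 123 ± 6.78 CPM in KO XEN, 71.6 ± 0.225 CPM in WT XEN and 115 ± 9.04 CPM in KO ESC (SD, n = 2, 2 and 3). The ratio of KO XEN over WT XEN was 1.71 (log2 fold change 0.78 ± 0.15), and WT XEN was below KO ESC by a log2 fold change of -0.69 ± 0.13, in the direction opposite to Atp1b1 in both cases.

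Atp1b2 encodes the beta subunit first described as an adhesion molecule of glia (ENSMUSG00000041329, chromosome 11, 69599736 to 69605942). It stood at 13.1 and 31.1 CPM in KO XEN (C4 and 5-3), 8.63 and 4.84 CPM in WT XEN, and 10.7, 27.9 and 28.5 CPM in KO ESC (C4, 5-3_1 and 5-3_2). Every knockout library was above both WT XEN libraries, and within each knockout group the C4 library was the lower one. Its log2 fold change was 1.72 ± 0.58 for KO XEN against WT XEN and -1.73 ± 0.55 for WT XEN against KO ESC. Without the KO XEN library of line 5-3, the first of these was 0.88. Of 7 astrocyte and radial glia markers 5 were tested. Against WT XEN, 1 was higher in KO XEN, none lower and 4 not past the threshold, where 46.2% of all tested genes passed. Against KO ESC, 2 were higher, none lower and 3 not past it, where 69.0% of all tested genes passed. Their part in the values of Atp1b2 was not tested.

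Fxyd6 encodes a pump modulator known from brain and inner ear (ENSMUSG00000066705, chromosome 9, 45370185 to 45396159). It stood at 78.9 and 57.8 CPM in KO XEN, against 24.9 and 12.4 CPM in WT XEN, and 157, 68.1 and 65.0 CPM in KO ESC. WT XEN libraries were the lowest and did not overlap the other groups, while the C4 library of KO ESC was the highest of all 7 and the range of KO XEN overlapped that of KO ESC. The ratio of mean levels was 3.67 for KO XEN over WT XEN (log2 fold change 1.87 ± 0.50), and WT XEN was 5.19-fold below KO ESC (-2.38 ± 0.48).

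Fxyd5 encodes dysadherin, which modulates the pump and is known for weakening adhesion between epithelial cells (ENSMUSG00000009687, chromosome 7, 31032722 to 31042481). Its counts were 44 and 121 in KO XEN, against 28 and 7 in WT XEN, and 54, 73 and 82 in KO ESC. Its levels were 3.19 and 3.72 CPM in KO XEN, against 0.767 and 0.194 CPM in WT XEN, and 1.30, 1.75 and 1.64 CPM in KO ESC. The groups did not overlap, with KO XEN highest and WT XEN lowest. The log2 fold change was 2.84 ± 0.61 for KO XEN against WT XEN and -1.69 ± 0.56 for WT XEN against KO ESC. The size of these differences moved with the WT XEN libraries: without WT XEN A the values were 4.07 and -2.96, and without WT XEN B they were 2.16 and -1.02. A microRNA gene, Mir7050, lies on the same strand within Fxyd5 and shares 60 exon bases with it.

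**Figure D1:**
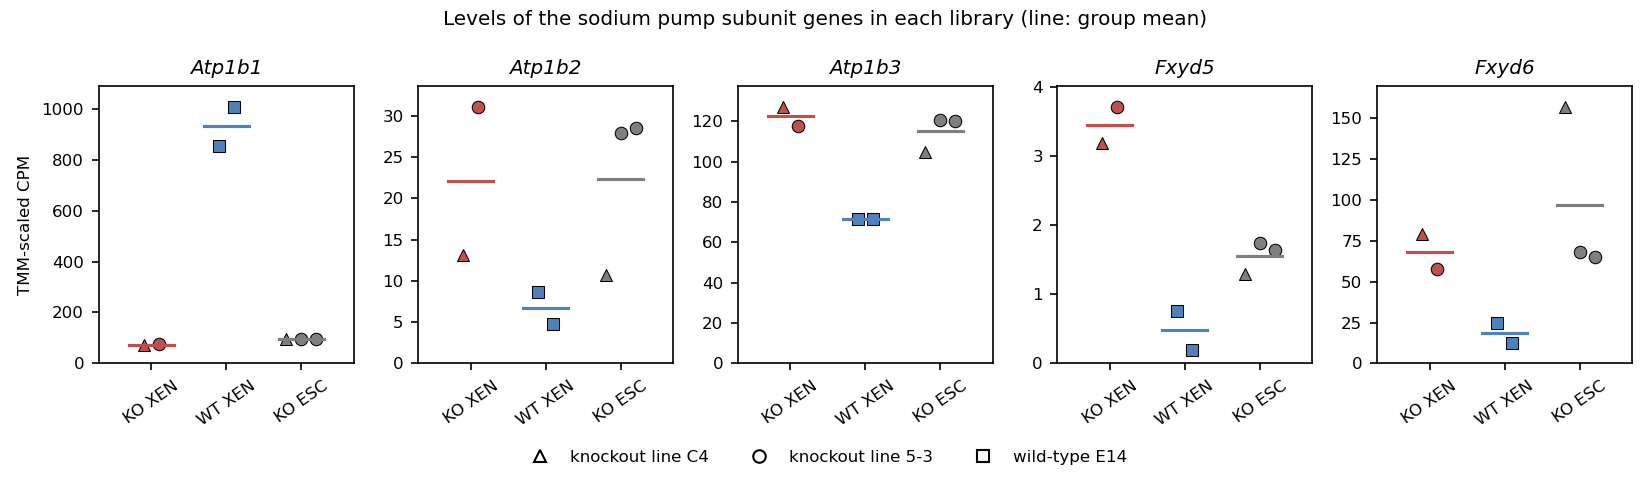
TMM-scaled CPM (y axis, from 0, one scale per gene) of the 5 genes in each library of KO XEN, WT XEN and KO ESC (x axis); triangles are line C4, circles line 5-3, squares wild-type E14, and horizontal lines are group means. Atp1b1 reaches 852 and 1008 CPM in WT XEN and stays at 71.1 to 97.0 CPM in the knockout libraries, while the WT XEN libraries are the lowest of the 3 groups for the other 4 genes. How many of all genes have these orders was not counted. At an edgeR adjusted p below 0.05, 46.2% of all tested genes differed between KO XEN and WT XEN, and 62.5% between WT XEN and KO ESC.

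Levels of different subunits were compared per kilobase of exon, since the genes differ in length. The length is that of all annotated exons merged, such as 693 bases for Fxyd7 and 4850 for Fxyd3. Which transcripts the cells used was not measured, so that shares and leading genes rest on this annotation. Among beta subunits Atp1b1 made up 29.0% and 30.0% of the summed CPM per kb in KO XEN, against 89.6% and 91.3% in WT XEN and from 35.1% to 40.4% in KO ESC. Atp1b3 made up 67.0% and 60.6% in KO XEN, against 9.69% and 8.38% in WT XEN and from 56.3% to 57.0% in KO ESC. Atp1b1 was thus the leading beta transcript in WT XEN, and Atp1b3 in all 5 knockout libraries. Atp1b2 held 4.04% and 9.36% in KO XEN, against 0.684% and 0.33% in WT XEN and from 3.34% to 7.9% in KO ESC. The fourth beta gene of the family, Atp1b4, which is known as a muscle gene, had 1 count in all libraries together. Summed over the family, beta transcripts reached 79.6 and 81.3 CPM per kb in KO XEN, against 309 and 358 in WT XEN and from 78.0 to 88.8 in KO ESC, so that the KO XEN sums lay within the range of KO ESC.

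Fxyd6 led the FXYD family in every library but WT XEN B. Its share of the summed CPM per kb was 93.4% and 81.6% in KO XEN, against 60.4% and 24.9% in WT XEN and from 93.9% to 97.2% in KO ESC. Fxyd3, which in WT XEN B held 73.6% of the family, took 34.2% in WT XEN A, 0.364% and 4.82% in KO XEN and at most 0.345% in KO ESC. Fxyd5 held 3.7% and 5.15% in KO XEN, against 1.82% and 0.383% in WT XEN and from 0.786% to 2.37% in KO ESC. The family total was 20.6 and 17.2 CPM per kb in KO XEN, against 10.0 and 12.1 in WT XEN and 39.3, 17.7 and 16.7 in KO ESC. Fxyd6 lies within 40.1 kb of chromosome 9 together with Fxyd2. Fxyd5 lies within 44.0 kb of chromosome 7 together with Fxyd7, Fxyd1 and Fxyd3. Fxyd3 and Fxyd5, which share that stretch, stood in opposite order between KO XEN and WT XEN.

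**Figure D2:**
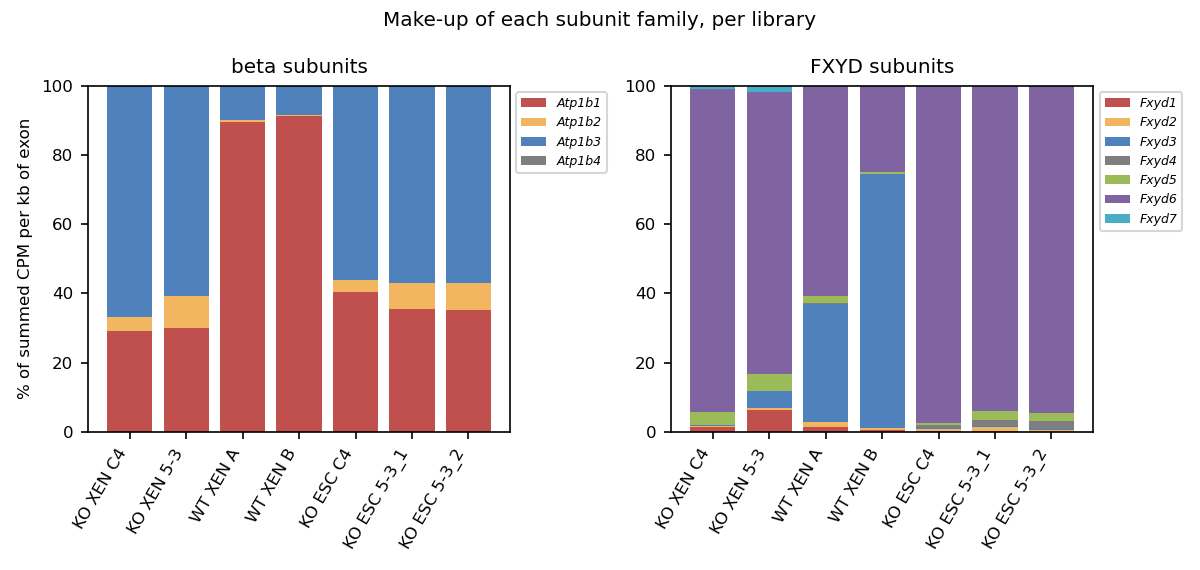
Share of each gene in the summed CPM per kb of exon of its family (y axis, percent) in each of the 7 libraries (x axis), for beta and FXYD subunits. Atp1b1 fills 89.6% and 91.3% of the beta bar in WT XEN and 29.0% to 40.4% in the knockout libraries, and Fxyd3 is seen mainly in WT XEN.

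Knockout cells after differentiation were compared with knockout cells before it, a contrast that the rule for choosing the genes does not name, although earlier results of these data were known when they were chosen. Of the 5 genes, 1 passed the edgeR quasi-likelihood test at a Benjamini-Hochberg adjusted p below 0.05, and 4 did not, where 69.0% of all 18426 tested genes passed. Atp1b1 fell, by a log2 fold change of -0.40 ± 0.13 (adjusted p = 0.0283, edgeR). Its mean was 1.32-fold lower in KO XEN than in KO ESC, and 2 of 2 KO XEN libraries were lower. The overlapping Nme7 fell in the same comparison, as given above, to a mean of 14.3 CPM in KO XEN, against 37.9 CPM in KO ESC, and the part of shared reads in the fall of Atp1b1 was not tested. The call was lost without KO XEN C4 (-0.35, edgeR adjusted p = 0.132), without KO XEN 5-3 (-0.52, adjusted p = 0.0534), without KO ESC 5-3_1 (-0.43, adjusted p = 0.0652) and without both C4 libraries (-0.36, adjusted p = 0.123). Fxyd5 did not pass, with 3.46 ± 0.374 CPM in KO XEN and 1.56 ± 0.238 CPM in KO ESC (log2 fold change 1.15 ± 0.50, edgeR adjusted p = 0.0717), although all libraries of KO XEN were above those of KO ESC. It passed where the fit held only the groups compared (1.13, edgeR adjusted p = 0.0193) or left out WT XEN A (1.11, 0.0244) or B (1.15, 0.0188), and over the alternatives its adjusted p ran from 0.0188 to 0.269. Fxyd6 gave -0.50 ± 0.45, Atp1b3 0.09 ± 0.13 and Atp1b2 -0.01 ± 0.51, with edgeR adjusted p of 0.34, 0.572 and 0.991, and the KO XEN and KO ESC ranges of these 3 genes overlapped. For Atp1b2 and Atp1b3 the sign of this small difference changed with the settings. The comparisons share libraries, WT XEN, KO XEN and KO ESC each standing in a pair of them, so that they are not independent of one another.

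**Figure D3:**
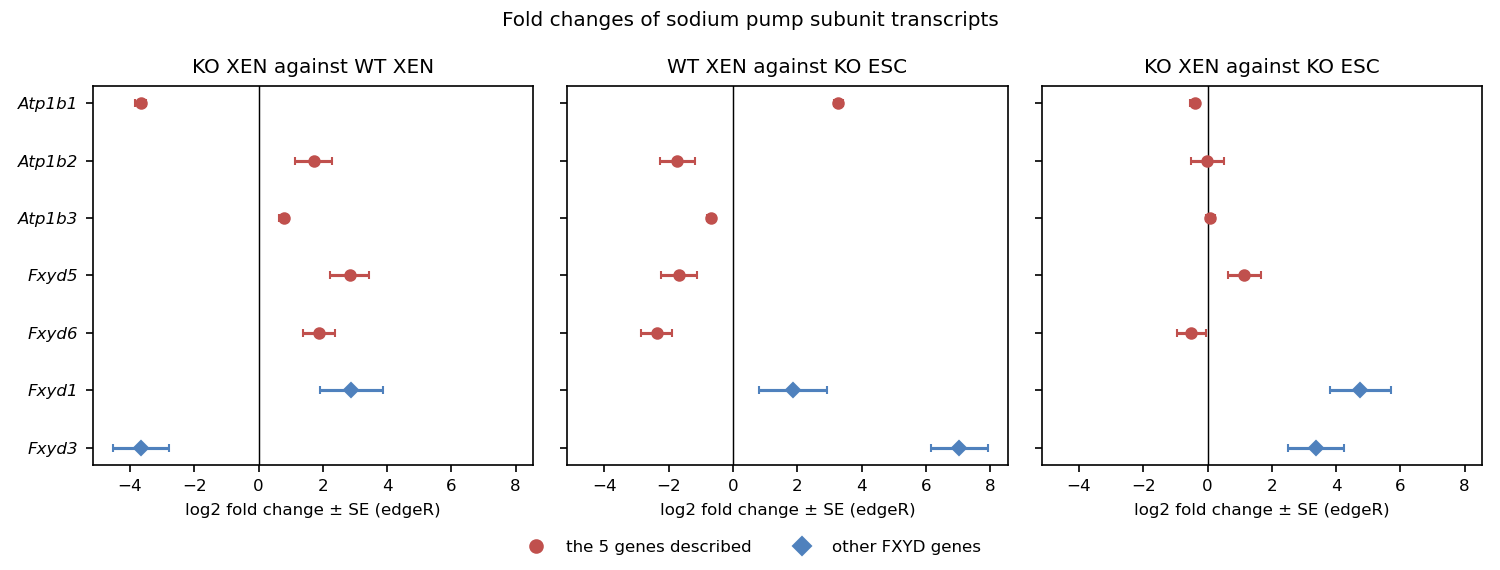
Log2 fold changes ± SE from the edgeR fit (x axis) of the 5 genes (red circles) and of Fxyd1 and Fxyd3 (blue diamonds) in KO XEN against WT XEN, WT XEN against KO ESC and KO XEN against KO ESC. Atp1b1 stands at -3.67, 3.27 and -0.40, opposite in sign to the other 4 circles in the first and the second panel.

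The knockout lines were compared next, with group kept in the model. In this comparison 14 of 18426 genes passed, which is 0.0760%, with 10 higher (0.0543%) and 4 lower (0.0217%) in C4, and none of the 5 genes did. Atp1b2 had the largest difference among them, with C4 below 5-3 by a log2 fold change of -1.34 ± 0.27 (edgeR adjusted p = 0.19). It passed with DESeq2 (-1.35, adjusted p = 0.00122), which called 205 genes higher and 130 lower in C4. Its C4 libraries held 13.1 and 10.7 CPM, against 27.9 to 31.1 CPM in the 3 libraries of 5-3. Fxyd6 was 0.91 ± 0.30 (edgeR adjusted p = 0.421), with 157 and 78.9 CPM in C4 and 57.8 to 68.1 CPM in 5-3. For both genes the values of the lines did not overlap, but how many of all tested genes separate in this way was not counted. Atp1b1 (-0.03 ± 0.14), Atp1b3 (-0.07 ± 0.14) and Fxyd5 (-0.32 ± 0.52) had edgeR adjusted p of 0.968, 0.907 and 0.874. Ago2 itself was higher in C4 (3.44 ± 0.14, edgeR adjusted p = 0.000506).

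The change from KO ESC to KO XEN within each line was also compared between the lines. Atp1b1 changed by -0.45 in C4 and -0.35 in 5-3 on the log2 scale, a difference of -0.09 ± 0.258. Fxyd6 changed by -0.99 in C4 and -0.20 in 5-3 (difference -0.79 ± 0.615), and Atp1b3 by 0.28 in C4 and -0.03 in 5-3 (difference 0.31 ± 0.214). Fxyd5 and Atp1b2 had differences of 0.17 ± 1.09 and 0.16 ± 0.556. None passed, with edgeR adjusted p between 0.654 and 0.999, in a fit with 2 residual degrees of freedom that called 0 of 18426 genes with edgeR, 1844 having an unadjusted p below 0.05.

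Other subunits of the pump were described from a list of 7 genes, of which 5 passed the filter. In KO XEN against WT XEN 1 was higher, 1 lower and 3 did not pass, where 46.2% of all tested genes passed, 22.3% higher and 23.9% lower. Their median log2 fold change was -3.66, against 0 over all tested genes. Atp1a4 and Fxyd4 had 0 counts in KO XEN and only 4 and 3 counts in WT XEN. With Fxyd4 left out and Atp1a4 set to a bound of 3 counts over KO XEN, the median was -0.17. That bound is 0.0648 CPM, above the mean of 0.0549 CPM of Atp1a4 in WT XEN. The value of -0.17 therefore carries neither size nor direction for Atp1a4. In KO XEN against KO ESC 2 were higher, 2 lower and 1 did not pass (median -1.38, all genes -0.08, of which 34.8% were higher and 34.3% lower). In WT XEN against KO ESC 1 was higher, 2 lower and 2 did not pass (median -0.81, all genes -0.03, of which 62.5% passed, 32.2% higher and 30.3% lower). Without both C4 libraries these counts were the same in all 3 comparisons. Atp1a4, known as the alpha subunit of sperm, had 0 counts in KO XEN and 22 to 81 in KO ESC, at least 20.3-fold lower taking 3 counts over the group as the floor.

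Among FXYD genes Fxyd3, an epithelial member also called Mat-8, stood at 0.363 and 4.03 CPM in KO XEN, against 16.6 and 43.1 CPM in WT XEN and 0.12 to 0.28 CPM in KO ESC. WT XEN was highest, as for Atp1b1, and the KO XEN libraries lay far apart. Fxyd3 fell in KO XEN against WT XEN (-3.66 ± 0.87, edgeR adjusted p = 0.0104), a call lost without WT XEN B (-2.85, adjusted p = 0.0705), and the value was -6.43 without KO XEN 5-3 and -2.89 without KO XEN C4. It rose in WT XEN against KO ESC (7.04 ± 0.88, adjusted p = 0.000282, and 6.21 without WT XEN B). Its rise in KO XEN against KO ESC (3.38 ± 0.86, adjusted p = 0.00803) rested on the 5-3 library, without which it was 0.61 (adjusted p = 0.627). Fxyd1, phospholemman, the pump modulator of heart and muscle, had 0.653 and 2.34 CPM in KO XEN, against 0.301 and 0.111 CPM in WT XEN and 0 to 0.096 CPM in KO ESC. It rose in KO XEN against KO ESC (4.76 ± 0.96, edgeR adjusted p = 0.00255), a call lost without KO XEN 5-3 (3.44, adjusted p = 0.0516). It was also higher in KO XEN than in WT XEN (2.88 ± 0.98, edgeR adjusted p = 0.0424), a call lost with line as a block (0.0562) and without KO ESC 5-3_1, WT XEN A, WT XEN B or KO XEN 5-3 (0.0621 to 0.394), where the value was 1.56 without KO XEN 5-3 and 3.71 without WT XEN A. Fxyd4 had 0 counts in KO XEN and 28 to 35 in KO ESC, at least 10.8-fold lower with the same floor. Fxyd2, the modulator known from kidney, was at 0.0726 to 1.18 CPM over the 7 libraries and passed in no comparison of groups with edgeR (adjusted p 0.621, 0.15 and 0.353). Fxyd7 stayed under the filter.

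Genes around the pump were taken from 3 further lists. Of 12 regulators and partners, all tested, 6 were higher and 2 lower in KO XEN against WT XEN (median 0.66), 7 and 2 in KO XEN against KO ESC (1.57), and 6 and 2 in WT XEN against KO ESC (1.18). Of all tested genes 46.2%, 69.0% and 62.5% passed in these comparisons, with medians of 0, -0.08 and -0.03, and the counts of this list and of the lists that follow are to be read against them. Nkain2, Nkain3 and Nkain4, whose protein family binds the product of Atp1b1, stood highest in KO XEN. Nkain1, of the same family, passed in none of the 3 comparisons (0.39 in KO XEN against WT XEN, 0.48 in KO XEN against KO ESC and 0.09 in WT XEN against KO ESC, log2 fold changes from edgeR). Nkain4 was at 93.6 and 65.2 CPM in KO XEN, against 14.3 and 12.0 CPM in WT XEN and 1.70 to 3.08 CPM in KO ESC, and Nkain3 at 12.1 and 13.4 CPM in KO XEN, against 0.822 and 1.02 CPM in WT XEN and 0.072 to 0.2 CPM in KO ESC. Both genes rose in KO XEN against WT XEN (2.6 ± 0.32 and 3.79 ± 0.42, edgeR adjusted p = 0.000613 and 0.000435), where Atp1b1 itself stood lower. They also rose in WT XEN against KO ESC (2.35 ± 0.28 and 2.68 ± 0.41, adjusted p = 0.000227 and 0.000819). Nkain2 had 66 counts in KO XEN against 1 in WT XEN, a CPM ratio of 104 with an exact 95% counting interval from 18 to 4150. Sgk1, a kinase that raises sodium transport, fell in KO XEN against WT XEN, with 34.0 and 21.0 CPM in KO XEN and 137 and 122 CPM in WT XEN (-2.24 ± 0.25, edgeR adjusted p = 0.000455). Its highest level, 248 to 316 CPM, was in KO ESC, unlike that of Atp1b1. Agrn, a proteoglycan that binds the pump, rose in KO XEN (2.61 ± 0.15, edgeR adjusted p = 4.54e-06) and in WT XEN (2.37 ± 0.15, adjusted p = 1.25e-05) against KO ESC. Fstl1, a secreted glycoprotein that binds the pump, rose likewise (4.79 ± 0.31 in KO XEN and 2.26 ± 0.29 in WT XEN, adjusted p = 7.84e-06 and 0.000314).

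Of 12 related P-type pumps, which move calcium, manganese or protons, 11 were tested. Higher and lower were 2 and 2 in KO XEN against WT XEN (median -0.52), 3 and 4 in KO XEN against KO ESC (0.04), and 2 and 5 in WT XEN against KO ESC (-0.37), with the rest not past the threshold, so that 4, 7 and 7 of 11 passed where 46.2%, 69.0% and 62.5% of all tested genes did. Without both C4 libraries these counts were 1 and 2, 3 and 6, and 3 and 5 in the same comparisons. Atp2c1, the Golgi calcium and manganese pump, fell in KO XEN against WT XEN, with 48.4 and 49.9 CPM in KO XEN and 95.1 and 124 CPM in WT XEN (-1.15 ± 0.20, edgeR adjusted p = 0.0025), and against KO ESC (-1.11 ± 0.18, adjusted p = 0.000913). Its relative Atp2c2 stood with Atp1b1 in being highest in WT XEN, at 0.653 and 1.66 CPM in KO XEN, against 6.82 and 3.29 CPM in WT XEN and 0.12 to 0.336 CPM in KO ESC. Atp2c2 rose in WT XEN against KO ESC (4.34 ± 0.60, edgeR adjusted p = 0.000452), and its fall in KO XEN against WT XEN (-2.07 ± 0.63, adjusted p = 0.0285) was lost without WT XEN A (0.151), KO XEN C4 (0.133) or both C4 libraries (0.0792), and was -3.03 without KO XEN 5-3. Atp2b4, a plasma membrane calcium pump, was higher in KO XEN than in WT XEN (1.09 ± 0.34, edgeR adjusted p = 0.031), and Atp2a2, a calcium pump of the endoplasmic reticulum, by 0.41 ± 0.15 (adjusted p = 0.0495). Both calls were lost without any 1 library of KO XEN or WT XEN or without KO ESC 5-3_2 (0.0508 to 0.226). That of Atp2a2 was also lost without KO ESC C4 (0.0771) or 5-3_1 (0.122), with no filter (0.162), with only the groups compared (0.136), with line as a block (0.0569) and without both C4 libraries (0.147). Atp2b1, another plasma membrane pump, rose in KO XEN (1.10 ± 0.22, edgeR adjusted p = 0.00239) and in WT XEN (1.63 ± 0.22, 0.0004) against KO ESC. Atp2a3, of the endoplasmic reticulum, fell in both (-3.93 ± 0.52 and -2.68 ± 0.46, 0.000256 and 0.00147); the second value was -3.65 without WT XEN A. Atp4a, the proton pump of the stomach, was at 0.145 and 0.0615 CPM in KO XEN, against 0.219 and 0.276 CPM in WT XEN and 1.03 to 1.27 CPM in KO ESC. It fell in KO XEN (-3.61 ± 0.59, edgeR adjusted p = 0.000853) and in WT XEN (-2.20 ± 0.48, 0.00444) against KO ESC.

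Sodium channels, exchangers and cotransporters, which use the gradient set up by the pump, made a list of 13 genes, of which 8 were tested. The list also holds Slc9a3r1, which encodes a scaffold protein and no transporter, and which is among the genes higher in KO XEN (1.71) and in WT XEN (1.5) against KO ESC. In KO XEN against WT XEN 1 was higher and 2 lower (median 0.16), in KO XEN against KO ESC 6 were higher and 2 lower (2.68), and in WT XEN against KO ESC 5 were higher and 1 lower (2.17). The genes called were thus 3, 8 and 6 of 8, where 46.2%, 69.0% and 62.5% of all tested genes passed. Slc34a2, a sodium-phosphate cotransporter of epithelia, was at 0.145 and 3.45 CPM in KO XEN, against 50.9 and 62.9 CPM in WT XEN and 0.024 to 0.192 CPM in KO ESC, the same order of WT XEN over the other groups as in Atp1b1. It fell in KO XEN against WT XEN (-4.83 ± 0.89, edgeR adjusted p = 0.00341), by a size that moved with the KO XEN libraries: it was -8.66 without 5-3, -4.04 without C4 and -6.09 with line as a block. It rose in WT XEN against KO ESC (9.14 ± 0.96, adjusted p = 0.000117, and 9.95 without KO ESC 5-3_1). Slc12a2, the sodium-potassium-chloride cotransporter, fell in KO XEN against WT XEN (-1.63 ± 0.31, edgeR adjusted p = 0.00397). Slc8a1, the sodium-calcium exchanger, was highest in KO XEN, at 13.4 and 27.1 CPM, against 5.18 and 4.42 CPM in WT XEN and 0 to 0.16 CPM in KO ESC. It rose in KO XEN (8.04 ± 0.71, edgeR adjusted p = 3.12e-05) and in WT XEN (5.96 ± 0.69, adjusted p = 0.000194) against KO ESC. Its higher value in KO XEN against WT XEN (2.08 ± 0.59, edgeR adjusted p = 0.022) was lost without WT XEN A, WT XEN B or KO XEN 5-3 (0.0832 to 0.201). Leaving out 1 library, the values against KO ESC ran from 7.38 to 9.43 in KO XEN and up to 7.42 in WT XEN, the highest in both without KO ESC 5-3_2. Slc5a1, the sodium-glucose cotransporter, fell in KO XEN (-4.31 ± 0.40, adjusted p = 3.77e-05) and in WT XEN (-4.42 ± 0.38, adjusted p = 4.69e-05) against KO ESC. Slc4a4, the sodium-bicarbonate cotransporter, rose in KO XEN (3.33 ± 0.45, edgeR adjusted p = 0.000301) and in WT XEN (2.85 ± 0.44, 0.00085) against KO ESC. Scnn1a, a subunit of the epithelial sodium channel, was at 2.105 and 5.998 CPM in KO XEN, against 3.64 and 6.58 CPM in WT XEN and 0.384 to 0.72 CPM in KO ESC. It rose in KO XEN against KO ESC (2.96 ± 0.53, edgeR adjusted p = 0.00145). Without KO XEN C4 the rise of Slc4a4 in that comparison was 2.22, and without KO XEN 5-3 that of Scnn1a was 1.92.

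**Figure D4:**
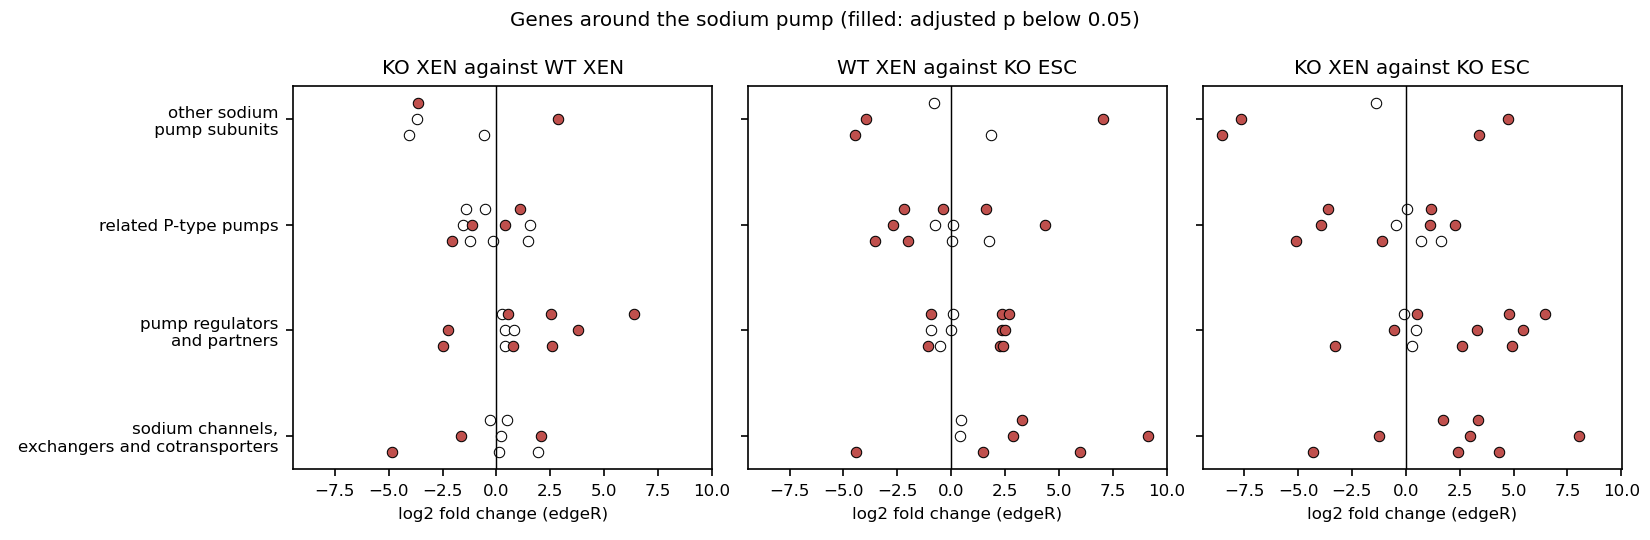
Log2 fold changes from the edgeR fit (x axis) of the tested genes of 4 lists (rows) in KO XEN against WT XEN, WT XEN against KO ESC and KO XEN against KO ESC; each point is a gene, filled where its adjusted p was below 0.05. In KO XEN against KO ESC all 8 genes of the sodium transport list are filled, 6 to the right and 2 to the left, where 69.0% of all tested genes passed. In that panel the 2 points farthest to the left in the top row are genes with 0 counts in KO XEN, whose fitted position is no measure of size. The same holds for the 2 points farthest to the left in the top row of KO XEN against WT XEN. These are Atp1a4 (-4.08) and Fxyd4 (-3.69), with 4 and 3 counts in WT XEN.

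For each of the 5 genes, the genes with the most similar profile over the 7 libraries were picked by Pearson's r of log2(CPM + 1) among 10874 genes whose highest group averaged 10 CPM or more. The libraries fall into 3 groups, so that these values order genes by likeness and carry no test. For Atp1b1 they included Bglap3 of the osteocalcin cluster and Entpd3 (r of 0.9982 and 0.9966). Entpd3, an ectonucleotidase, was at 0.581 and 0.677 CPM in KO XEN, against 15.4 and 21.9 CPM in WT XEN and 0.66 to 0.984 CPM in KO ESC. Atp1b3 was most like Rapgef1, Csad and Tbc1d9 (0.994, 0.9919 and 0.9901). Csad, an enzyme of taurine synthesis, was at 62.3 and 65.3 CPM in KO XEN, against 10.1 and 8.21 CPM in WT XEN and 35.2 to 62.1 CPM in KO ESC. Atp1b2 was most like Wipi2, Med28 and Mib2 (0.9783, 0.9746 and 0.9685), all of which had lower values in C4 than in 5-3 within each knockout group. Choosing genes by r over the same libraries favours such a shared order, here and for Fxyd6 below. Likeness in r is also not likeness in size: Wipi2 ran from 117 to 140 CPM over the 7 libraries, Atp1b2 from 4.84 to 31.1 CPM. Fxyd5 was most like Sptb, Smad7 and Oas1a (0.9971, 0.9969 and 0.9965), and Fxyd6 was most like Slc20a1, Ldhb and Pald1 (0.9902, 0.9897 and 0.9798). Slc20a1, a sodium-dependent phosphate transporter, was at 291 and 204 CPM in KO XEN, against 129 and 86.6 CPM in WT XEN and 387, 261 and 263 CPM in KO ESC, with C4 above 5-3 in both knockout groups as in Fxyd6. Bglap3 and Oas1a have close paralogs, between which reads can be split. Between the 5 genes, r of Atp1b1 with the other 4 was -0.98 for Atp1b3, -0.88 for Fxyd6, -0.87 for Fxyd5 and -0.78 for Atp1b2.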

How the data were processed

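Polyadenylated RNA of 7 libraries in 3 groups was sequenced as TruSeq libraries on a HiSeq2000, per the labels. The authors deposited raw read counts per Ensembl gene for 43629 genes, without normalization; per the submitters' processing notes the tools were STAR 2.4.2a and featureCounts 1.4.5-p1 with mm10. Strand setting, annotation and filters of that step are not given in the sources used here. Symbols, positions and exon lengths were taken from GENCODE M21 (GRCm38, the assembly of mm10), which matched 42462 IDs, and promoter windows from RefSeq, which matched 4 of the 5 genes.

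Counts entered an edgeR 4.0.16 quasi-likelihood fit (R 4.3.3, limma 3.58.1) of all 7 libraries in 3 groups, scaled by TMM and filtered with filterByExpr by group to 18426 genes; an adjusted p (Benjamini-Hochberg) below 0.05 was called. Residual degrees of freedom were 4, and the common biological coefficient of variation was 0.268. The SE of a fold change is its size divided by the square root of F. CPM uses TMM-scaled totals, and CPM per kb the merged exon length. Floors of 3 counts over a group equal 0.0648 CPM for KO XEN, 0.0413 for WT XEN and 0.0225 for KO ESC, and floors and intervals cover counting error only. Whether the libraries of a group were separate cultures is not in the labels, so p-values measure the spread between libraries, which may be technical. Alternatives were upper-quartile and RLE scaling, DESeq2 1.42.0, no filter, fits of only the groups compared, line as a block, each library left out, and, added after seeing Ago2 in line C4, both C4 libraries left out. The script was tested on simulated counts. Lines C4 and 5-3 pair KO XEN with KO ESC by the labels; the difference of C4 from 5-3 in KO XEN correlated with that in KO ESC across 18426 genes with r = 0.0634.

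The genes and lists were chosen with earlier results of these data known. Named were the 5 genes, other pump subunits averaging 1 CPM or more in a group, up to 4 genes per pathway list and comparison with the smallest adjusted p among those called, Ago2, and the 3 genes most like each of the 5. Fxyd2, Fxyd4, Fxyd7, Atp1b4, Nme7, Nkain1 and Slc9a3r1 were named after their values were seen. Some genes of these lists are not reported here, and counts are over the remaining members.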

Additional observations from a re-analysis of the deposited data

How the results depend on the processing

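Of 270 recomputed fold changes of the 5 genes, 240 kept their direction and their side of the threshold or moved by less than 1 SD between libraries. In KO XEN against KO ESC, upper-quartile scaling turned Atp1b3 to -0.031, which left all genes at a median of -0.194 in place of -0.075, and Fxyd5 passed at 1.13 with only the groups compared. With line as a block in the paired fit, Atp1b2 turned to 0.21 (edgeR adjusted p = 0.503) in KO XEN against KO ESC; beside the calls of Fxyd1 and Atp2a2 named above, the block changed no other call of a named gene. Without both C4 libraries, Atp1b1 was -0.36, Atp1b2 0.14 and Atp1b3 -0.034 in that comparison. Upper-quartile scaling gave 3.09 for Atp1b1 and -0.86 for Atp1b3 in WT XEN against KO ESC, where the median of all genes was -0.199 in place of -0.026. For the lines, DESeq2 called 205 genes higher and 130 lower, of which 61.2% were higher in place of 71.4%, and Atp1b2 passed at -1.35; with only the 5 knockout libraries 1 gene was lower.

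Leaving out 1 library in turn, fold changes in KO XEN against WT XEN ranged from -3.86 to -3.55 for Atp1b1, 0.88 to 2.21 for Atp1b2 and 2.16 to 4.07 for Fxyd5, and 2511 (without WT XEN B) to 4318 genes were called higher, against 4115 with all libraries; without KO XEN 5-3 it was 2618. In KO XEN against KO ESC they ranged from -0.52 to -0.35 for Atp1b1, -0.85 to 0.48 for Atp1b2, -0.067 to 0.087 for Atp1b3 and 0.94 to 1.25 for Fxyd5; Atp1b2 turned without KO ESC 5-3_1 (0.15), KO ESC 5-3_2 (0.11) or KO XEN C4 (0.48), and Atp1b3 without KO ESC C4 (-0.067). In WT XEN against KO ESC they ranged from 3.15 to 3.42 for Atp1b1 and -2.96 to -1.02 for Fxyd5. For the lines they ranged from -0.081 to 0.0099 for Atp1b1 and -0.24 to 0.11 for Atp1b3, with 0 to 13 genes higher and 0 to 4 lower. The causes were not tested. Of 614 values of other named genes, 584 were unchanged in this sense and 30 lost their call.

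A group of 2 or 3 libraries limits the precision of every value here. KO XEN C4, the shallowest library, held 44 counts of Fxyd5, and WT XEN B 7.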
